A study of Mus musculus with 18 samples.

Results

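Transcripts of 8 genes whose human counterparts carry blood group antigens (Kel, Icam4, Rhag, Rhd, Gypc, Ermap, Slc14a1 and Cd44) and of the water channel gene Aqp1 were followed in erythroblasts from mice with mutant Klf1. The members were chosen by name as the blood group and surface genes of interest, several of which are reduced in the human In(Lu) type caused by KLF1 variants. They are 9 of the 23365 gene rows of the count table, and all 9 were among the 13405 genes tested. RNA was sequenced from cells sorted out of mouse spleen for 2 surface proteins of red cell precursors, CD71 (the transferrin receptor) and TER119. Klf1 codes for a zinc finger transcription factor of the erythroid lineage, KO is a knockout allele of it, and D45 is an allele with missense changes that the series title places in the linker-2 stretch of the protein. There were 4 D45/KO libraries (one D45 and one KO allele), 3 D45/D45 libraries, 5 WT/KO libraries, 3 WT/D45 libraries and 3 WT/WT libraries, 18 in all. The series design calls the replicates biological. It describes haemolytic anaemia with an enlarged spleen in compound heterozygous mice, so in comparisons with D45/KO the allele and the anaemia cannot be told apart. The sources used here give neither the ages of the mice nor the part of Klf1 that the KO allele lacks.

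Blood group antigens are inherited differences in proteins and sugars of the red cell surface. Many of the proteins have a job of their own: RhAG and RhD form the core of the Rh complex, which is held to the spectrin skeleton, Kell is an endopeptidase, glycophorin C anchors the membrane to protein 4.1, and aquaporin-1 and the urea transporter UT-B, encoded by Slc14a1, let water and urea pass. ICAM-4 and CD44 are adhesion molecules, and ERMAP is an immunoglobulin-type membrane protein of erythroid cells. In humans, heterozygous loss of KLF1 function gives the In(Lu) type, in which antigens of several of these systems are weak, and KLF1 binds CACCC-type sequences in promoters of erythroid genes.

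Promoters of the genes whose relative levels differed most between genotypes, and of Rhag, to which they were compared, are shown so that KLF-type and GATA-type letters can be seen side by side. RefSeq promoters (GRCm38.p6, 250 bases before to 50 after the start) were taken for 7 of the 9 genes. Slc14a1 was left out of the search, and no entry was found for Gypc. Capitals mark the KLF-type motif CCNCNCCC and 2 forms of a GATA-type motif. The first of the GATA-type forms is AGATAA. The second, counted alike, is TGATAA. All were searched on both strands, so a match on the opposite strand is seen as its reverse complement.
Rhag, chr17:40810899-40811198, + strand: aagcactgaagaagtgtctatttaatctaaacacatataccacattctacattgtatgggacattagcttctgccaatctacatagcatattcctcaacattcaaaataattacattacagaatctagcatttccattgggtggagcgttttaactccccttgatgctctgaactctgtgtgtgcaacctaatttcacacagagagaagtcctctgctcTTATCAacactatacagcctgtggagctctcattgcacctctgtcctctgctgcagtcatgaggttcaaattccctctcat
Rhd, chr4:134864286-134864585, + strand: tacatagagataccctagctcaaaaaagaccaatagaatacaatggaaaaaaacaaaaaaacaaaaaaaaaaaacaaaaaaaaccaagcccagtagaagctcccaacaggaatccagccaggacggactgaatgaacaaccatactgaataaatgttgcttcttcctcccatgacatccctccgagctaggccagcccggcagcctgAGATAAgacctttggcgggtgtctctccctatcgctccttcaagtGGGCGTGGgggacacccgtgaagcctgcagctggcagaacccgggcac
Icam4, chr9:21029182-21029481, + strand: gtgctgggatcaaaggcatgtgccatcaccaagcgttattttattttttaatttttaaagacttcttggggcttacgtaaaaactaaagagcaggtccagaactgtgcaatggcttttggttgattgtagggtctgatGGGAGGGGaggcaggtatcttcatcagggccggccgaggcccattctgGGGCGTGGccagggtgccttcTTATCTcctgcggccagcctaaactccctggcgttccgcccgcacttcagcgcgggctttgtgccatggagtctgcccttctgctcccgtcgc
Kel, chr6:41704276-41704575, - strand: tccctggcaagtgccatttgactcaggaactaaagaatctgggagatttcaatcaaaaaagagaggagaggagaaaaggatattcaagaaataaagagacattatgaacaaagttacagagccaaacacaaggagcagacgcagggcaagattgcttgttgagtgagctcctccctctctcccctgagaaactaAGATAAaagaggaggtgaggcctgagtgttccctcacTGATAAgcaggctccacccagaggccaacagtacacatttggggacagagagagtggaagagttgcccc
Aqp1, chr6:55336049-55336348, + strand: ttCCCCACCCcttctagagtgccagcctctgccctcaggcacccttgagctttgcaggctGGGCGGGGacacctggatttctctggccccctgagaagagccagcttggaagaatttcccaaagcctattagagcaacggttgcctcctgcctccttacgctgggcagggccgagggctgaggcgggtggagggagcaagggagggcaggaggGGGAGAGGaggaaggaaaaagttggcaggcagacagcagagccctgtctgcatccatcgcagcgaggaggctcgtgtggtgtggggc
The KLF-type motif had 1 match in the Rhd window, 2 in Icam4 and 3 in Aqp1, and 0 in Rhag and Kel. Outside the windows printed, Ermap had 0 matches and Cd44 6, some of which overlap each other. Of all 32851 promoters, 49.5% hold at least 1 match, so 4 of the 7 windows is a share near that of all promoters. A GATA-type motif was found in Rhag, Rhd, Icam4, Ermap and Cd44 with 1 match each and in Kel with 2, but not in Aqp1, against 18.6% of all promoters with at least 1. The shorter letters CACCC were not searched for, and can be read on one strand or the other in every window printed. Such matches describe letters, not bound sites, and the counts themselves were made on mm9, an earlier build.

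Total counts ran from 9.36 to 56.3 M per library (M stands for 1e+06). Klf1 was measured at 282 to 763 CPM (counts per 1e+06, with library sizes adjusted by TMM) in D45/KO, 709.5 to 1576 CPM in D45/D45, 158 to 834 CPM in WT/KO, 551 to 1295 CPM in WT/D45 and 452 to 1047 CPM in WT/WT, which checks the labels only in part, since the part that the KO allele lacks is not known here. The erythroblast label held: 9 of 10 listed erythroblast markers were tested, none was at 0 in any library, and they summed to 13844 to 115532 CPM. B cell transcripts split the libraries. The mean log2 CPM of 13 of 13 B cell markers lay at 3.55 to 6.77 in 9 libraries, and the other 9 had -2.41 to -0.77. High libraries were D45/KO replicates 1 to 3, D45/D45 replicate 1, WT/KO replicates 1 to 3, WT/D45 replicate 1 and WT/WT replicate 1. Summed B cell markers were at 4.24 to 855 CPM in D45/KO, 2.79 to 914 CPM in D45/D45, 6.60 to 2184 CPM in WT/KO, 4.92 to 1418 CPM in WT/D45 and 11.9 to 1235 CPM in WT/WT. Up to 7 of the 13 markers were at 0 in a low library. Mouse identifiers in the labels went with the split: 7 of the 9 high libraries had one under 200, and 0 of the 9 low ones. The labels do not say whether the identifiers mark a batch. A fit with identifiers under 200 or not as a term called 0 of the 9 genes. Of all 13405 genes it called 138 in D45/KO against WT/WT, 58 in D45/KO against WT/KO and 79 for any difference. In D45/D45, WT/KO and WT/D45 against WT/WT it called 2, 0 and 0.

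The 2 Rh genes differed in their order of genotypes. Rhag, the RhAG glycoprotein needed for the Rh complex to reach the surface, had similar means in D45/KO (1133 ± 303 CPM, SD, n = 4) and WT/WT (1086 ± 566, n = 3). Rhd, the RhD protein, averaged 947 ± 409 CPM in the D45/KO libraries and 1987 ± 1131 CPM in the WT/WT ones. Neither difference passed the test, and the genotypes overlapped in both genes.

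Library by library, Rhag was at 959, 849.7, 1186 and 1537 CPM in D45/KO and at 715, 1823 and 1819.7 CPM in D45/D45. The 5 WT/KO libraries had 329.7, 323, 221, 1585 and 1428 CPM, and values were 414, 1345 and 1378 CPM in WT/D45 and 458, 1242 and 1557 CPM in WT/WT. In each genotype the libraries high in B cell markers were the low ones for Rhag, and the lowest D45/KO library still lay above every high B cell marker library of the other genotypes. The order of the Rhag means was D45/D45 (1453), D45/KO, WT/WT, WT/D45 (1046) and WT/KO (777), with overlapping ranges between all neighbours. In D45/KO the edgeR log2 fold change was 0.06 ± 0.71 (SE) against WT/WT and 0.54 ± 0.62 against WT/KO, with adjusted p-values of 0.999 and 0.927.

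Rhd was at 707, 598, 967.5 and 1515 CPM in D45/KO and at 811, 2506 and 2303 CPM in D45/D45. Values were 457, 420.3, 317, 2237 and 2388 CPM in WT/KO, and 713, 2054 and 2377 CPM in WT/D45 and 684, 2568 and 2710.3 CPM in WT/WT. Among the 9 libraries low in B cell markers, the single D45/KO library had the lowest Rhd. Among the 9 high ones, D45/KO libraries were spread over and around the WT/WT value. Rhd had means of 947 CPM in D45/KO, 1164 in WT/KO, 1714 in WT/D45, 1873 in D45/D45 and 1987 CPM in WT/WT, from the lowest to the highest, again with all ranges overlapping. The log2 fold change in D45/KO was -1.07 ± 0.77 against WT/WT (edgeR adjusted p = 0.821) and -0.30 ± 0.69 against WT/KO (0.96).

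**Figure D1:**
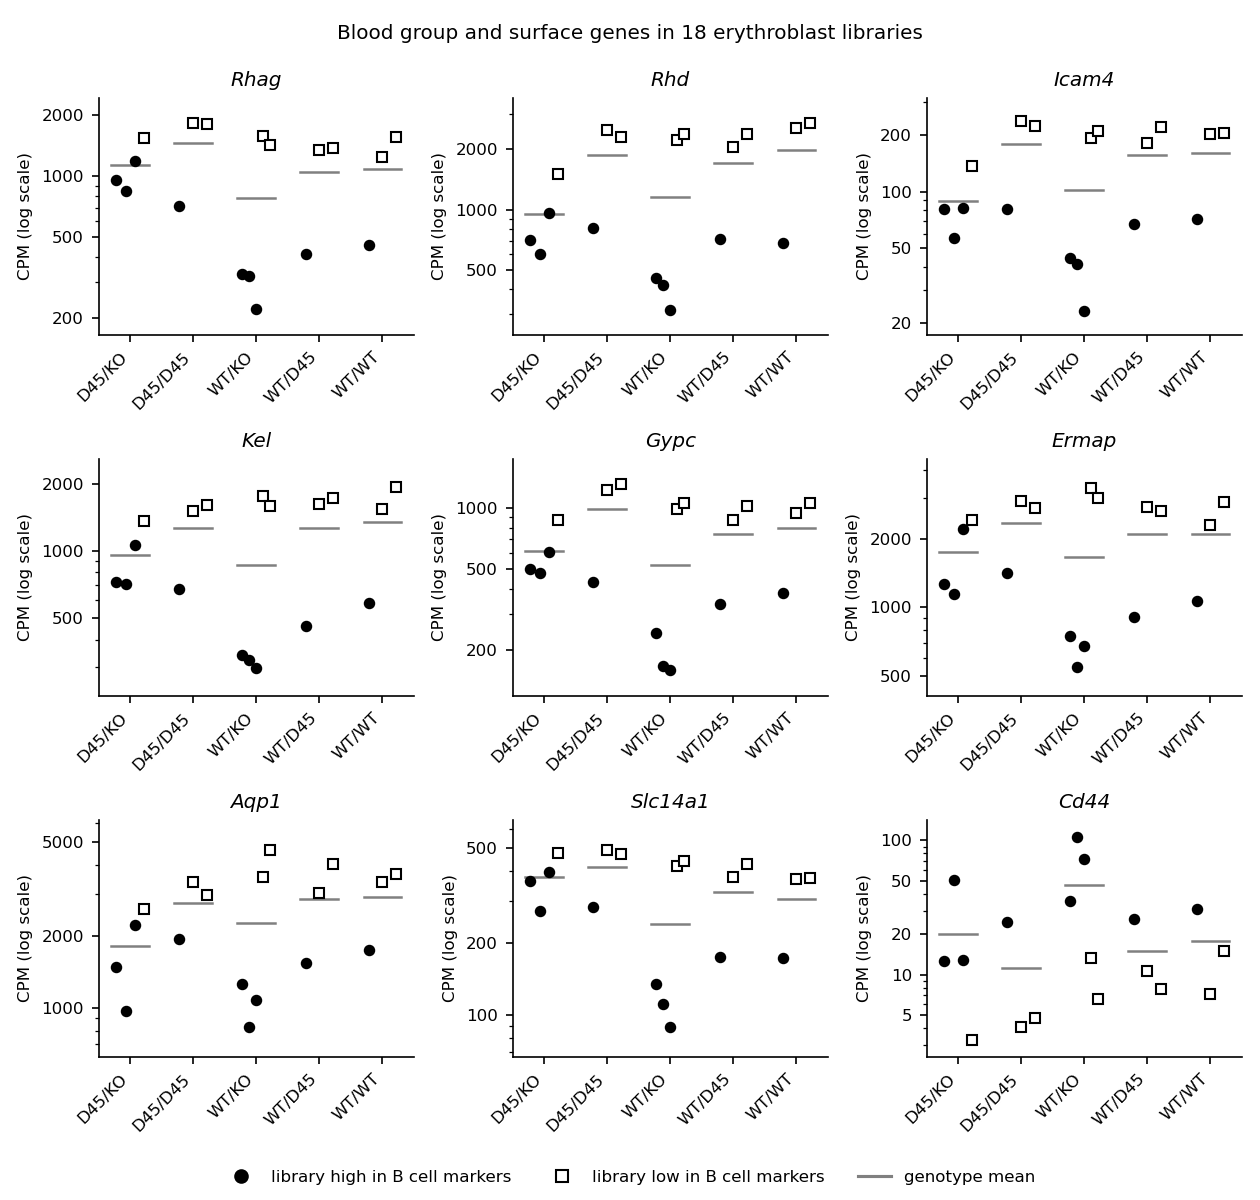
CPM (log scale) of the 9 genes in each of the 18 libraries, by genotype, with grey lines at genotype means. Filled circles are libraries high in B cell markers and open squares libraries low in them. Within every genotype the filled circles lie below the open squares for all genes except Cd44, where they lie above.

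Of the adhesion molecules, Icam4 was lower in D45/KO on average and Cd44 was higher in WT/KO, and neither passed the test. Icam4, which carries the human LW antigen and binds integrins, ranged over 56.9 to 137 CPM in D45/KO, 80.9 to 237 in D45/D45, 23.2 to 209.8 in WT/KO, 67.8 to 221 in WT/D45 and 71.3 to 206 in WT/WT. Its log2 fold change in D45/KO against WT/WT was -0.84 ± 0.68 (edgeR adjusted p = 0.876) and against WT/KO -0.20 ± 0.60. The gene overlaps an antisense gene (Gm47079) in the annotation, and the sources used here do not say if counting was stranded, so reads of the 2 genes cannot be told apart.

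Cd44, the hyaluronan receptor that carries the human Indian antigens, is found on leukocytes as well as red cell precursors. It was at 12.7, 50.7, 12.9 and 3.26 CPM in D45/KO and at 24.7, 4.07 and 4.76 CPM in D45/D45. Values were 35.3, 106, 72.2, 13.4 and 6.60 CPM in WT/KO, 26.1, 10.7 and 7.82 CPM in WT/D45 and 30.9, 7.13 and 14.9 CPM in WT/WT. WT/KO held the 2 highest libraries, replicates 2 and 3, and D45/KO replicate 2 came after them, and every genotype overlapped with the others. Those are also the 3 libraries highest in macrophage markers. Of 13 listed macrophage markers 12 were tested, none at 0 in any library, and they summed to 245 to 3510 CPM in D45/KO, 258 to 336 in D45/D45, 266 to 3252 in WT/KO, 239 to 358 in WT/D45 and 364 to 724 in WT/WT. The log2 fold change of Cd44 was 0.17 ± 0.95 in D45/KO against WT/WT (adjusted p = 0.999), and -0.89 without those 3 libraries, and -1.23 ± 0.86 in D45/KO against WT/KO (0.927). The part of other cells in the Cd44 counts was not tested.

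Kel, Gypc and Ermap had their lowest means in WT/KO, with wide overlap. Kel, the Kell endopeptidase that activates endothelin-3, ranged over 709 to 1059 CPM in the 3 high D45/KO libraries and was at 1352 CPM in the remaining one, against 581 CPM and 1537 to 1933 CPM in the corresponding WT/WT libraries. Kel overlaps an unprocessed transcript on the same strand (Gm37527), and reads of the pair cannot be told apart. The log2 fold change of Kel was -0.49 ± 0.70 in D45/KO against WT/WT and 0.16 ± 0.62 against WT/KO. Gypc, glycophorin C, which carries the human Gerbich antigens, averaged 614 ± 181 CPM in D45/KO, 523 ± 460 CPM in WT/KO and 794 ± 363 CPM in WT/WT, with log2 fold changes of -0.37 ± 0.69 against WT/WT and 0.23 ± 0.61 against WT/KO. Ermap, which carries the human Scianna antigens, averaged 1752 ± 641 CPM in D45/KO, 1661 ± 1379 CPM in WT/KO and 2085 ± 935 CPM in WT/WT, with log2 fold changes of -0.25 ± 0.71 and 0.08 ± 0.62. Adjusted p-values of these 3 genes in the comparisons with D45/KO were between 0.966 and 0.999.

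The 2 channel genes stood apart from each other. Slc14a1, the urea transporter that carries the human Kidd antigens, had its highest means in D45/D45 (415 ± 115 CPM, n = 3) and D45/KO (377 ± 83.2 CPM, n = 4) and its lowest in WT/KO (240 ± 176 CPM, n = 5), with 327 ± 133 CPM in WT/D45 and 306 ± 116 CPM in WT/WT. Aqp1, the water channel that carries the human Colton antigens, had its lowest mean in D45/KO (1824 ± 737 CPM), with 2770 ± 743 in D45/D45, 2268 ± 1715 in WT/KO, 2870 ± 1249 in WT/D45 and 2932 ± 1028 in WT/WT. All neighbours in both orders overlapped.

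Slc14a1 was at 363, 274, 398 and 474 CPM in D45/KO and at 283, 490.5 and 472 CPM in D45/D45. WT/KO libraries had 135, 111, 89.6, 421 and 442 CPM, and it was at 175, 379 and 426 CPM in WT/D45 and at 173, 371 and 375 CPM in WT/WT. The 3 D45/KO libraries high in B cell markers lay above all 5 high libraries with a WT allele, whereas the low libraries of all genotypes lay between 371 and 490.5 CPM. The log2 fold change in D45/KO was 0.30 ± 0.54 against WT/WT and 0.65 ± 0.47 against WT/KO (edgeR adjusted p = 0.999 and 0.927).

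Aqp1 was at 1484, 968, 2237.5 and 2605 CPM in D45/KO and at 1947, 3391 and 2971 CPM in D45/D45. WT/KO values were 1252, 828, 1073, 3555 and 4630.4 CPM, with 1548, 3031 and 4031 CPM in WT/D45 and 1754, 3388 and 3653 CPM in WT/WT. The D45/KO library low in B cell markers had the lowest Aqp1 of the 9 low libraries, and the genotypes overlapped. The log2 fold change in D45/KO was -0.69 ± 0.67 against WT/WT and -0.31 ± 0.60 against WT/KO (edgeR adjusted p = 0.942 and 0.948).

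Across comparisons, 0 of the 9 genes passed an edgeR adjusted p of 0.05, and 0 had an unadjusted p under 0.05. Of all tested genes, 0.619% passed in D45/KO against WT/WT, with 1197 genes at an unadjusted p under 0.05. D45/KO against WT/KO had 0.172%, and in D45/D45, WT/KO and WT/D45 against WT/WT 0% each. In the test for any difference among the 5 genotypes 0.336% passed. DESeq2 called 0 of the 9 genes in the comparisons with D45/KO, while calling 3.14% and 1.38% of all genes in those of D45/KO with WT/WT and with WT/KO. limma-voom with library weights called Rhag and Slc14a1 higher and Cd44 lower in D45/KO against WT/KO, with 17.9% of all genes called, and Kel, Icam4, Rhag, Rhd, Gypc and Slc14a1 lower in WT/KO against WT/WT, with 8.65%. It also called 6 of the 9 for any difference, with 17.1%. Median log2 fold changes of the 9 genes in D45/KO were -0.37 against WT/WT and 0.08 against WT/KO, beside medians over all tested genes of 0.07 and -0.15.

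In D45/D45 against WT/WT the 9 genes had a median log2 fold change of 0.17, from -0.66 for Cd44 to 0.44 for Slc14a1, beside 0.01 over all genes. In WT/KO against WT/WT the median was -0.48, from -0.77 for Rhd to 1.40 for Cd44, beside 0.26, with only Cd44 above 0. With genotype only, that median was farther from 0 than those of the comparisons with D45/KO, but it varied with the fit. It was -0.05 with library totals only and 0.01 without the 3 libraries highest in macrophage markers. With library weights it was -1.73, and in high libraries alone -0.84. In low libraries alone it was -0.02, where D45/KO had -0.36 against WT/WT and -0.35 against WT/KO. In WT/D45 against WT/WT the median with genotype only was -0.05, from -0.25 for Cd44 to 0.09 for Slc14a1, beside 0.10. The authors' deposited table gives log2 fold changes in the opposite direction, WT/WT over WT/KO, of -0.52 for Cd44 to 1.18 for Rhd, and its adjusted p-values for the 9 genes were between 0.853 and 0.898. In CPM, 0 of the 9 genes had genotypes that did not overlap in any of the 5 comparisons, against 10.2% of all tested genes in D45/KO against WT/WT, 2.71% in D45/KO against WT/KO, 11% in D45/D45, 1.61% in WT/KO and 4.04% in WT/D45 against WT/WT.

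The levels followed the split by B cell transcripts. In TMM-adjusted CPM, for 7 of the 9 genes, all but Slc14a1 and Cd44, every library high in B cell markers lay below every low one. Of all tested genes 6.06% also did. Rhd was at a median of 684 CPM (317 to 967.5) in the high libraries and 2377 CPM (1515 to 2710.3) in the low ones. Aqp1 had medians of 1484 and 3391 CPM, and Icam4 67.8 and 206 CPM. Cd44 ran the other way, at a median of 30.9 CPM in high libraries and 7.13 CPM in low ones, with overlap. In sorted bulk cells, fewer erythroid cells and less RNA per erythroid cell cannot be told apart.

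**Figure D2:**
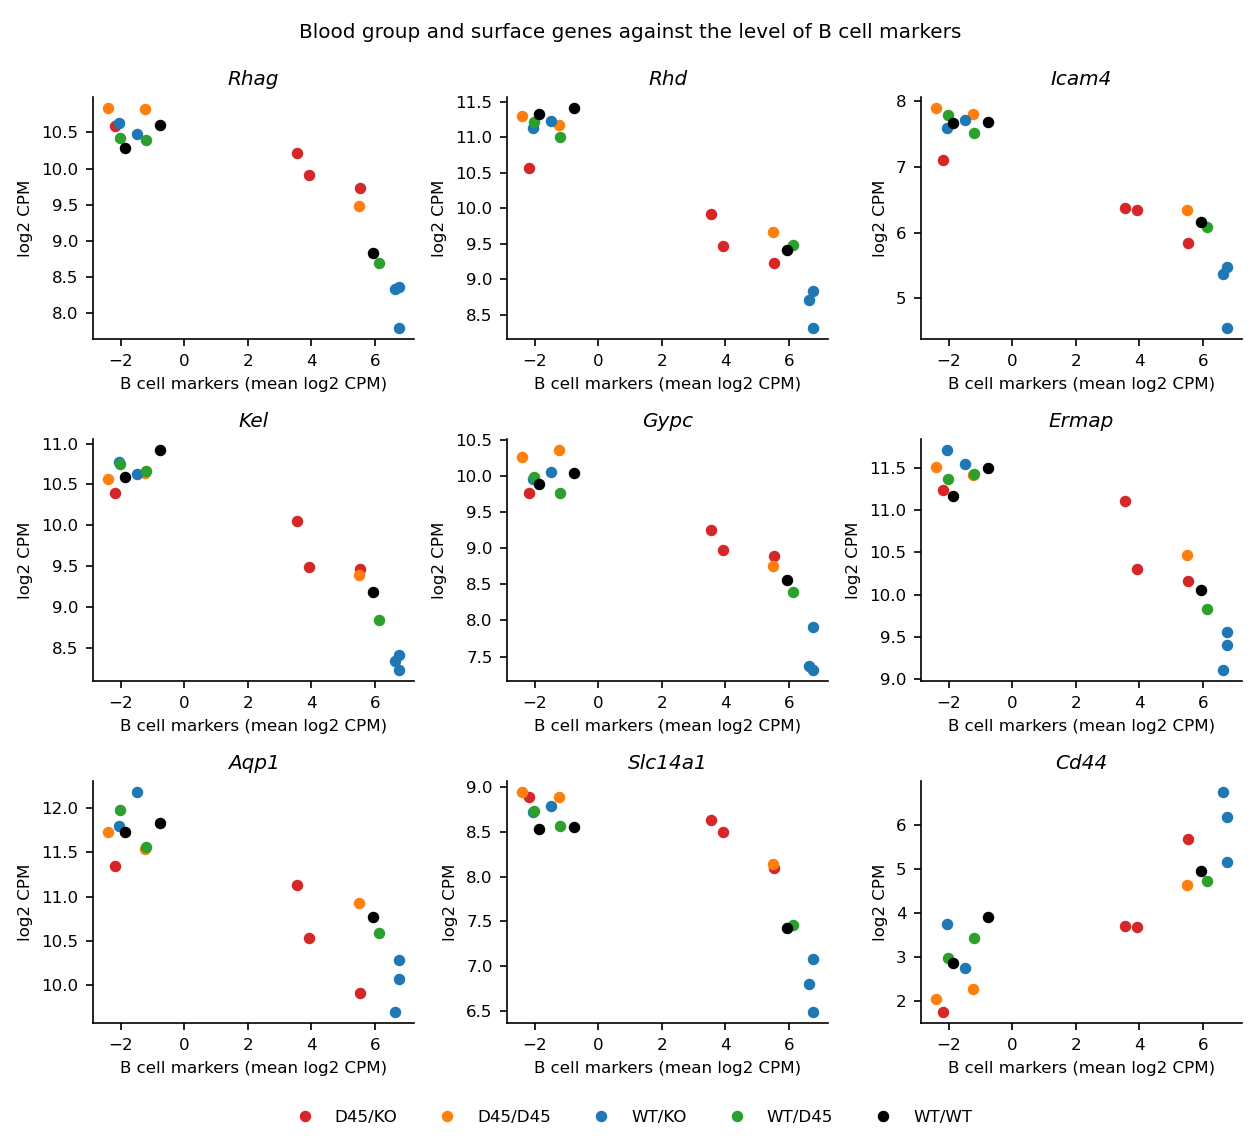
Log2 CPM of each gene (y axis) against the mean log2 CPM of 13 B cell markers (x axis) in the 18 libraries, coloured by genotype. The libraries form a low set at -2.41 to -0.77 and a high set at 3.55 to 6.77, and in the high set D45/KO libraries have fewer B cell transcripts than WT/KO libraries.

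With B cell marker level added to the fit as a covariate, Slc14a1 was higher in D45/KO than in WT/KO, with a log2 fold change of 0.84 ± 0.20 and an edgeR adjusted p of 0.0302. It was the only one of the 9 genes called, where 2.66% of all genes were. Rhag came next at 0.86 ± 0.24 with an adjusted p of 0.0593. Against WT/WT, Slc14a1 was at 0.64 ± 0.24 (adjusted p = 0.157) and Rhag at 0.58 ± 0.28 (0.292), and 0 of the 9 genes were called, beside 4.1% of all genes. Rhd was at -0.51 ± 0.27 (0.332) against WT/WT and at 0.00 ± 0.23 (1) against WT/KO.

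Fits within the 2 sets of libraries differed from each other. Among the 9 libraries high in B cell markers, Kel (1.41), Rhag (1.82), Gypc (1.53) and Slc14a1 (1.66) were called higher in D45/KO than in WT/KO, where 7.55% of all genes were called. In that set, B cell marker levels did not overlap, with 3.55 to 5.54 in D45/KO libraries and 6.63 to 6.77 in WT/KO libraries, and their part in the result was not tested. Among the 9 low libraries, with a single D45/KO library assumed to vary like the others, the log2 fold changes of those 4 genes were -0.26, 0.07, -0.19 and 0.18, and 0 of the 9 genes were called, beside 0.335% of all genes.

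**Figure D3:**
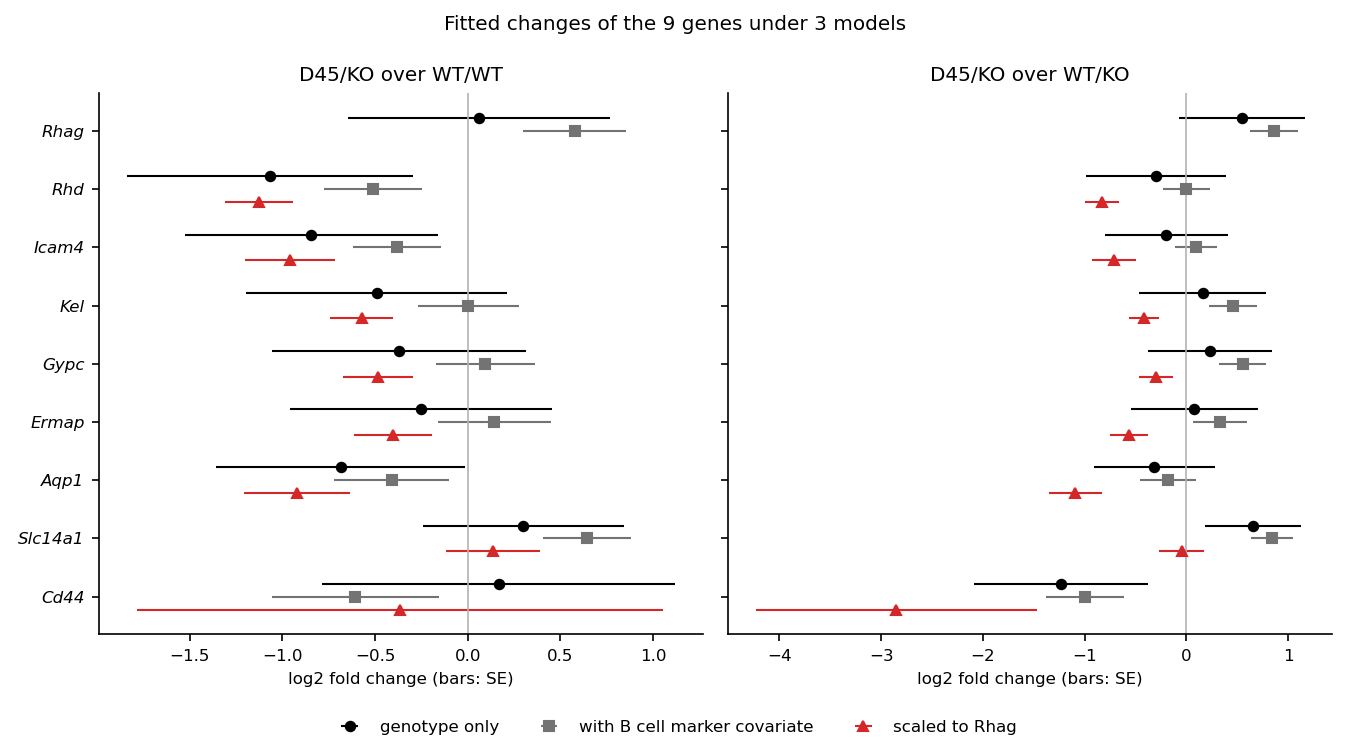
Log2 fold changes (x axis, bars: SE) of the 9 genes in D45/KO over WT/WT (left) and D45/KO over WT/KO (right) from fits with genotype only, with the B cell marker covariate and with libraries scaled to their Rhag count. Rhag has no value in the last because it sets the scale. Rhd lies at -1.12 and -0.83 when scaled to Rhag, and Slc14a1 at 0.14 and -0.05.

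The proportions among the 9 genes separated some genotypes whose levels overlapped. Dividing counts by the Rhag count of the same library sets aside cells without Rhag only for genes that those cells do not express. This scale was chosen after the values were seen. Some ratios still differed with the split by B cell transcripts. In WT/WT, Aqp1 to Rhag was 3.83 in the high library and 2.35 to 2.73 in the low ones. Rhd to Rhag went the other way there, at 1.49 and 1.74 to 2.07. In WT/KO, Cd44 to Rhag was 0.107 to 0.330 and 0.00462 to 0.00844. In D45/KO, the Aqp1 ratio of the low library lay within the range of the high ones. Relative to Rhag, D45/KO libraries held less Rhd, Icam4, Kel and Aqp1 than WT/KO and WT/WT libraries, with no overlap. Slc14a1 relative to Rhag overlapped in every comparison. A lower ratio can come from less of the gene or from more Rhag. With genotype only, log2 fold changes in D45/KO against WT/KO were 0.54 for Rhag and -0.30 for Rhd. Against WT/WT they were 0.06 and -1.07, and none of these was called. The gene lengths enter each ratio alike in every library, so a ratio is compared only between libraries.

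The Rhd to Rhag count ratio was 0.737, 0.703, 0.816 and 0.986 in D45/KO and 1.13, 1.37 and 1.27 in D45/D45. It was 1.39, 1.30, 1.43, 1.41 and 1.67 in WT/KO, 1.72, 1.53 and 1.72 in WT/D45 and 1.49, 2.07 and 1.74 in WT/WT. All 4 D45/KO libraries were below all others, high and low in B cell markers alike, and the 3 D45/D45 libraries overlapped only with WT/KO. The means were 0.811 ± 0.126 in the 4 D45/KO libraries (SD), 1.26 ± 0.121 in the 3 of D45/D45, 1.44 ± 0.138 in the 5 of WT/KO, 1.66 ± 0.114 in the 3 of WT/D45 and 1.77 ± 0.288 in the 3 of WT/WT. Within the high libraries D45/KO had ratios of 0.703 to 0.816 and WT/KO of 1.30 to 1.43, and within the low ones 0.986 in D45/KO and 1.41 and 1.67 in WT/KO.

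Scaled to Rhag, the edgeR fit over all genes called Rhd lower in D45/KO than in WT/WT (log2 fold change -1.12 ± 0.18, adjusted p = 0.0028) and than in WT/KO (-0.83 ± 0.17, adjusted p = 0.017). It was the only one of the 8 remaining genes called in either, where 1.06% and 0.977% of all genes were. Rhd was also called for any difference among the genotypes (0.023), where 0.604% were. Most calls over all genes on this scale were lower in D45/KO. Against WT/WT 10 were higher and 132 lower, and against WT/KO 3 were higher and 128 lower. Against WT/WT the call of Rhd held in 7 of 7 fits that left out 1 library (adjusted p of 0.00273 to 0.0342). Against WT/KO it held in 6 of 9, and without D45/KO replicate 1, 2 or 3 the adjusted p was 0.0923, 0.0981 and 0.0741. Neither the adjusted p-values nor these fits account for choosing the Rhag scale after the values were seen, so they cannot bear out that choice. This scale also moves the median of all tested genes, to -0.37 for D45/KO against WT/WT and -1.47 for D45/KO against WT/KO, so Rhd lay below that median in the first and above it in the second. When libraries were scaled to 9 erythroblast markers instead, Rhd was at -0.78 ± 0.20 (adjusted p = 0.12) and -0.40 ± 0.18 (0.568), and 0 of the 9 genes were called, beside 0.768% and 0.321% of all genes.

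Icam4 and Kel followed Rhd in part. The Icam4 to Rhag ratio was 0.0841, 0.067, 0.0695 and 0.0891 in D45/KO, 0.113 to 0.13 in D45/D45, 0.105 to 0.147 in WT/KO, 0.136 to 0.164 in WT/D45 and 0.132 to 0.164 in WT/WT. The D45/KO libraries were again below all others. The Kel to Rhag ratio was 0.752, 0.834, 0.893 and 0.88 in D45/KO and 0.943, 0.8288 and 0.879 in D45/D45, and the 2 genotypes overlapped. Both lay below the 1.01 to 1.35 of WT/KO, the 1.11 to 1.25 of WT/D45 and the 1.24 to 1.27 of WT/WT. Against WT/WT, Icam4 scaled to Rhag had a log2 fold change of -0.96 ± 0.24 (edgeR adjusted p = 0.076) and Kel -0.57 ± 0.17 (0.164) in D45/KO, so neither passed the test over all genes.

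Aqp1 relative to Rhag was lower in D45/KO than in WT/KO and WT/WT without overlap, and Gypc and Ermap overlapped in part. The Gypc to Rhag ratio was 0.513 to 0.567 in D45/KO, 0.513 to 0.741 in WT/KO and 0.678 to 0.828 in WT/WT, with overlap between D45/KO and WT/KO. The Aqp1 to Rhag ratio was 1.14 to 1.89 in D45/KO, 2.24 to 4.85 in WT/KO and 2.35 to 3.83 in WT/WT, and its Rhag-scaled log2 fold change against WT/KO was -1.09 ± 0.26 (edgeR adjusted p = 0.0557). It was called in 1 of 9 fits that left out 1 library (adjusted p of 0.0275 to 0.193). Ermap overlapped through 1 D45/KO library in each comparison with D45/KO, at 1.31 to 1.85 in D45/KO, 1.70 to 3.07 in WT/KO and 1.85 to 2.32 in WT/WT. Slc14a1 to Rhag was 0.309 to 0.378 in D45/KO, 0.260 to 0.395 in D45/D45, 0.266 to 0.410 in WT/KO, 0.282 to 0.424 in WT/D45 and 0.241 to 0.377 in WT/WT.

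By count, the ratio to Rhag did not overlap for 5 of 8 genes in D45/KO against WT/WT (Rhd, Icam4, Kel, Gypc and Aqp1), where 8.13% of all tested genes did not. Against WT/KO, D45/KO had 4 of 8 (Rhd, Icam4, Kel and Aqp1), against 5.07%. D45/D45 against WT/WT had 3 of 8 (Rhd, Icam4 and Kel), against 7.34%, with D45/D45 lower in each. In WT/KO and WT/D45 against WT/WT it was 0 of 8, against 0.925% and 1.57%. All of these but D45/KO against WT/KO share the WT/WT libraries, and the 2 with D45/KO share its libraries.

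Other denominators gave fewer differences against WT/KO. Of the 36 ratios between 2 of the 9 genes, 17 did not overlap in D45/KO against WT/WT, where 8.75% of the ratios of all tested genes to the 9 did not. It was 7 of 36 in D45/KO against WT/KO (3.14%), 5 in D45/D45 (7.02%), 1 in WT/KO (1.08%) and 0 in WT/D45 (1.99%) against WT/WT. The single ratio in WT/KO was Gypc to Ermap. In D45/KO against WT/KO, Rhd was lower without overlap relative to Rhag, Gypc and Slc14a1, and overlapped relative to Kel, Icam4, Ermap, Aqp1 and Cd44. The ratios share genes and libraries and are not independent of each other.

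Summed megakaryocyte markers did not overlap between D45/KO and the genotypes with a WT allele. All 6 listed megakaryocyte markers were tested, and they summed to 362 to 709 CPM in D45/KO, 170 to 499 CPM in D45/D45, 34.9 to 185 CPM in WT/KO, 31.3 to 116 CPM in WT/D45 and 21.2 to 157 CPM in WT/WT. Most of each D45/KO sum was Itga2b, an integrin subunit of platelets, at 324 to 654 CPM in D45/KO, 18.8 to 149.9 CPM in WT/KO and 8.39 to 137 CPM in WT/WT. Pf4, a platelet chemokine that marks the lineage, was at most 0.404 CPM in D45/KO and at 0 in 2 of its 4 libraries. Late erythroblast markers (8 of 8 tested, none at 0 in any library) summed to 7414 to 15944 CPM in D45/KO, 4192 to 32714 CPM in WT/KO and 5289 to 43046 CPM in WT/WT, with overlap. The part of these in the ratios was not tested.

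**Figure D4:**
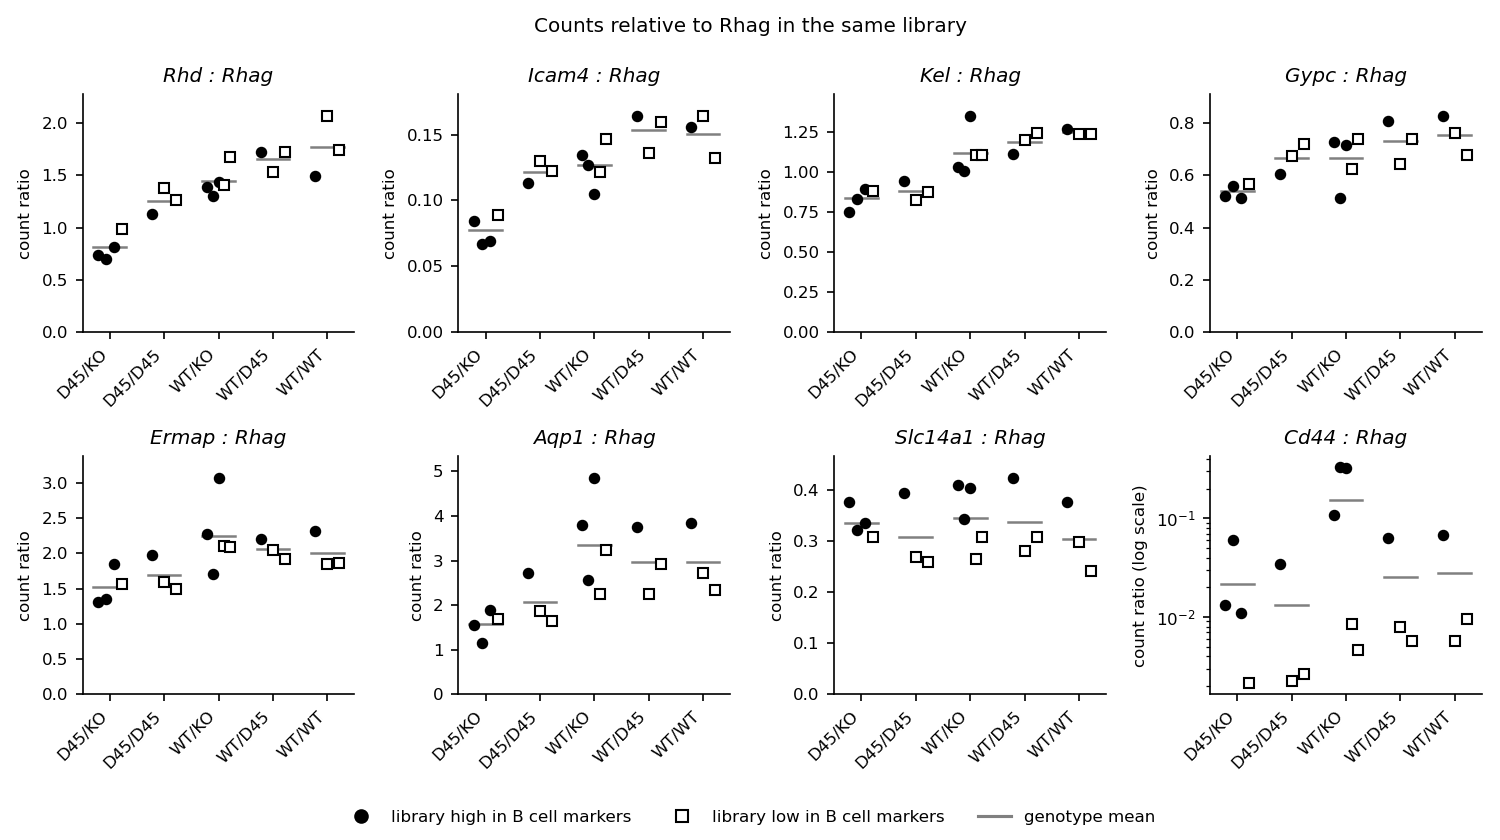
Ratio of the counts of 8 genes to the Rhag count of the same library (y axis, log scale for Cd44 only), by genotype, with grey lines at genotype means, filled circles for libraries high in B cell markers and open squares for low ones. D45/KO libraries lie at 0.703 to 0.986 for Rhd and 0.067 to 0.0891 for Icam4, below every other library, and overlap with all genotypes for Slc14a1.

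Within the sets of libraries, the 8 genes other than Cd44 varied together to different degrees. Over the 9 high libraries their 28 pairs had Pearson correlations of log2 CPM between 0.54 and 0.99, and over the 9 low libraries between -0.54 and 0.89. The points of a set share library depth and scaling, so these describe the libraries only. Over all 18 libraries, which form 2 sets, the genes most like each member among 9471 genes were Abcg2 (0.993) and Pir (0.99) for Rhag, Icam4 (0.989) and Ctse (0.989) for Rhd, Rhd (0.989) and Ndc80 (0.988) for Icam4, and Nfe2 (0.991) and Rnf19a (0.989) for Kel. They were Epor (0.989) and Ccdc23 (0.987) for Gypc, Brpf3 (0.989) and Synj1 (0.986) for Ermap, Atg4d (0.983) and Maz (0.98) for Aqp1, and Mfsd2b (0.99) and Rhag (0.984) for Slc14a1. Cd44 was most like Evl (0.977) and Cyth4 (0.967), and its correlations with the other 8 genes were between -0.85 and -0.74 in the high libraries and between -0.79 and 0.88 in the low ones.

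Of 30 other genes listed for blood groups, 29 were in the table and 25 were tested. The Lutheran glycoprotein gene Bcam, whose human antigens define the In(Lu) type, was not among those tested: it had counts above 0 in 6 of 18 libraries and at most 8. Fut1 had at most 24 counts, Fut2 at most 22 and Abo 0 in every library. With genotype alone 0 of the 25 were called in any comparison, and their median log2 fold change in D45/KO was -0.60 against WT/WT, with 8 above 0, and -0.26 against WT/KO, with 11 above 0.

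Cd59a, which shields cells from complement, was the lowest of them in D45/KO against WT/WT. It was at 21.3, 16.7, 20.8 and 21.9 CPM in D45/KO and at 25.8, 32.2 and 63.6 CPM in D45/D45. WT/KO values were 30.9, 45.3, 28.7, 95.5 and 73.5 CPM, with 41.2, 71.9 and 79.2 CPM in WT/D45 and 27.4, 109 and 168 CPM in WT/WT. All 4 D45/KO libraries were below all the others. The log2 fold change was -2.33 ± 0.52 against WT/WT (edgeR adjusted p = 0.0565) and -1.44 ± 0.47 against WT/KO (0.491). With the B cell marker covariate it was called lower in both, at -1.88 ± 0.34 (0.00236) and -1.36 ± 0.29 (0.0143).

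Darc, the Duffy chemokine receptor, averaged 33.4 ± 20.4 CPM in the D45/KO libraries (SD, n = 4) and 144 ± 82.4 CPM in WT/WT (n = 3). The 2 ranges overlapped, at 21.2 to 63.8 CPM and 52.0 to 211 CPM. WT/KO libraries ran from 7.47 to 192 CPM, so its lowest lay below all of D45/KO. Against WT/WT, Darc had a log2 fold change of -2.11 ± 0.92 (edgeR adjusted p = 0.491), and with the covariate was called lower at -1.56 ± 0.38 (0.0206). Those 2 were the only other blood group genes called with the covariate against WT/WT, and Cd59a was the only one against WT/KO, so 2 and 1 of 25 stand beside 4.1% and 2.66% of all genes. The largest positive values among genes at 2 CPM or more were Abcc1 (0.59 ± 1.34) and Abcb6 (0.54 ± 0.58), the Langereis porphyrin transporter, against WT/WT, and Xk (0.70 ± 0.37), the partner of Kell, and Abcc4 (0.69 ± 0.29) against WT/KO. None of these 4 passed the test. Sema7a (-2.62 ± 2.32) was the lowest against WT/KO, with an SE close to the value itself.

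**Figure D5:**
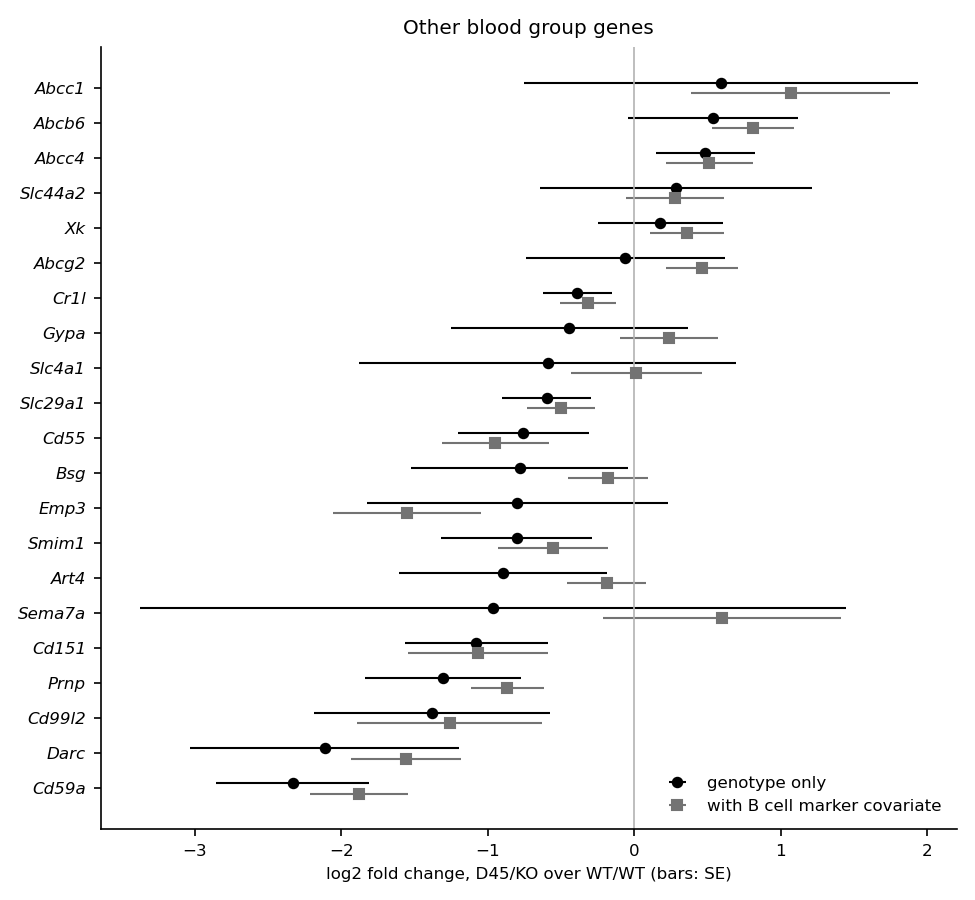
Log2 fold changes in D45/KO over WT/WT (x axis, bars: SE) of the 21 other blood group genes with a mean of at least 2 CPM, from fits with genotype only (circles) and with the B cell marker covariate (squares). Cd59a at -2.33 and Darc at -2.11 are the lowest with genotype only, and remain the lowest with the covariate except that Emp3 comes close to Darc.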

How the data were processed

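Per the labels, RNA came from Trizol extraction and libraries from the Swift Rapid RNA kit. HISAT2, featureCounts, limma and mm9 are named, without versions, in the submitters' processing notes, and the strand setting is not stated there. The authors deposited whole-number counts per gene symbol for 18 libraries. A second deposited table holds, for WT/WT over WT/KO, the authors' log2 fold changes with p-values and adjusted p-values for 9918 genes.

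Counts were fitted in R 4.3.3 with edgeR 4.0.16 (filterByExpr by genotype, TMM, quasi-likelihood without the robust option, genotype as the only term, all 18 libraries), and p-values were adjusted by Benjamini-Hochberg over the 13405 genes tested, two-sided, with a threshold of 0.05. CPM used TMM-adjusted library sizes (factors of 0.366 to 1.93) and for log2 CPM 2 counts were added as a prior. The SE of a log2 fold change is approximate, being its size over the root of the F statistic. The B cell covariate is the mean log2 CPM of 13 markers. DESeq2 1.42.0 and limma 3.58.1 were alternatives. The code was tested on simulated data. The lowest count of a member in any library was 57 for Cd44 and 354 for Icam4, and 1367 or more for the rest.

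The members and gene lists were chosen with earlier results of these data known. All 9 members are named. Of the lists of other blood group genes and of membrane partners, the rule named those called, and per comparison the 2 highest and the 2 lowest fold changes at 2 CPM or more, of which those of the D45/KO comparisons are given. Bcam, Fut1, Fut2 and Abo were named after their counts were seen.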

Additional observations from a re-analysis of the deposited data

How the results depend on the processing

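Calls depended on the method. Of the 9 members 0 were called with DESeq2 or limma-voom, with other scalings except that to Rhag, without a filter, with a mouse identifier term (under 200 or not), with only the 2 genotypes of a comparison, in libraries low in B cell markers, or with any 1 library left out. Members were called in D45/KO against WT/KO with library weights (3), the B cell covariate (1), high libraries alone (4) and Rhag scaling (1), in D45/KO against WT/WT with Rhag scaling (1), in WT/KO against WT/WT with weights (6), and for any difference with weights (6) and Rhag scaling (1). The causes were not tested.

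Counts of genes called are given for D45/KO against WT/WT, D45/KO against WT/KO, D45/D45 against WT/WT, WT/KO against WT/WT and any difference, in that order, where 83, 23, 0, 0 and 45 were called. They were 421, 185, 68, 19 and 321 with DESeq2, 717, 2394, 138, 1160 and 2290 with weights, 549, 357, 52, 4 and 395 with the B cell covariate, and 322, 46, 186, 23 and 247 in low libraries (3 in WT/D45 against WT/WT). In high libraries the first 2 were 10 and 1103. The first 3 were 126, 38 and 3 with DESeq2 size factors in edgeR, and 138, 58 and 2 with the identifier term (any difference 79). Rhag scaling gave 142, 131, 6 and, for any difference, 81. limma-voom gave 67 in D45/KO against WT/KO, 1 in WT/KO against WT/WT and 27 for any difference. D45/KO against WT/KO and D45/D45 against WT/WT were at 43 and 5 with library totals only, 6 and 1 with only 2 genotypes, 43 and 5 with erythroblast scaling, and 11 and 2 without the 3 libraries highest in macrophage markers (1 in WT/KO against WT/WT). Leaving out 1 library gave 19 to 121, 9 to 36, 0 to 3, 0 to 1 and 10 to 51. In D45/KO against WT/WT the count was 25, 31 and 24 without D45/KO replicates 1, 3 and 4, and 19 and 28 without WT/WT replicates 2 and 3. In D45/KO against WT/KO it was 10, 9 and 13 without the same D45/KO replicates, and 15, 14, 11 and 36 without WT/KO replicates 1, 2, 4 and 5.

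Uncalled log2 fold changes of members near 0 changed sign. In D45/KO against WT/WT, Cd44 was at -0.68 with weights, -0.61 with the B cell covariate, -1.74 in low and -0.32 in high libraries, -0.36 with Rhag and -0.061 with erythroblast scaling, -0.54 with limma-voom and -0.89 without the macrophage-rich libraries. Rhag was at -0.24 with weights. With the covariate Kel was at 0.0038, Gypc at 0.095 and Ermap at 0.14, and with the identifier term Gypc was at 0.063 and Ermap at 0.14. In high libraries Kel was at 0.46, Rhd at 0.089, Gypc at 0.42 and Ermap at 0.47, and with totals only Kel at 0.30, Gypc at 0.37 and Ermap at 0.45. In D45/KO against WT/KO, Icam4 was at 0.81 with weights, 0.092 with the covariate, 0.32 with the identifier term, 1.06 in high libraries, 0.22 with limma-voom and 0.17 with totals only. Rhd was at 0.72, 0.24, 0.97, 0.075 and 0.066 in those fits without the covariate, and Aqp1 at 0.52 with weights and 0.61 in high libraries. Kel was at -0.26 in low libraries, -0.42 with Rhag scaling and -0.19 without the macrophage-rich libraries, Gypc at -0.19, -0.30 and -0.17, and Ermap at -0.35, -0.57 and -0.23, with -0.096 for Ermap under erythroblast scaling. Slc14a1 was at -0.046 with Rhag scaling. With 1 library left out, the range in D45/KO against WT/WT was -0.30 to 0.42 for Rhag, -0.56 to 0.063 for Ermap and -0.88 to 0.86 for Cd44. In D45/KO against WT/KO it was -0.059 to 0.59 for Kel, -0.48 to 0.24 for Icam4, -0.62 to 0.14 for Rhd, -0.00052 to 0.66 for Gypc, -0.15 to 0.49 for Ermap and -0.54 to 0.12 for Aqp1.

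Same-numbered libraries of 2 genotypes gave 31 pairs, whose deviations from the genotype means correlated between -0.46 and 0.77, with 18 pairs over 0.1. All 10 pairs of replicate 1, which are high in B cell markers with identifiers under 200, were at 0.31 to 0.77, but 4 of 10 pairs of replicate 2 and 3 of 10 of replicate 3 were over 0.1, so the numbers were not taken to pair the samples. With the replicate block, 209, 128, 10 and 157 genes were called in the first 3 comparisons and for any difference, no member was called, and in uncalled values Rhag was at -0.14 against WT/WT and Icam4 at 0.62, Rhd at 0.50 and Aqp1 at 0.27 against WT/KO.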

Other observations

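Membrane proteins that hold the blood group carriers to the red cell skeleton were listed as 23 symbols, some of them alternative names, of which 18 were in the table and tested. With genotype alone 0 of the 18 were called in any comparison, and their median log2 fold change in D45/KO was -0.38 against WT/WT and 0.17 against WT/KO. Epb4.9, the actin-bundling protein dematin, had the lowest value against WT/WT at -2.88 ± 0.76 (edgeR adjusted p = 0.134). Its levels in these genotypes did not overlap, at 100.4 to 349 CPM in D45/KO and 665 to 1906 CPM in WT/WT, as for 10.2% of all tested genes. WT/KO libraries, at 261 to 1571 CPM, overlapped with D45/KO. With the B cell marker covariate Epb4.9 was called lower in D45/KO against WT/WT (-2.50 ± 0.27, adjusted p = 1.3e-05) and against WT/KO (-1.80 ± 0.24, 3.0e-04). With the covariate Add3, an adducin subunit, was also called lower against WT/WT (-1.87 ± 0.42, 0.0131). Tpm3, a tropomyosin, was then called lower against WT/KO (-0.89 ± 0.20, 0.0179) and Hk1, a hexokinase, higher (0.81 ± 0.21, 0.0454). So 2 of the 18 were called with the covariate against WT/WT and 3 against WT/KO, beside 4.1% and 2.66% of all genes. Add3 overlapped, at 0.49 to 31.8 CPM in D45/KO, 1.71 to 63.8 CPM in WT/KO and 6.49 to 43.0 CPM in WT/WT. The part of other cells in the Add3 counts was not tested. Against WT/KO with genotype alone, the lowest values were Slc2a1, the glucose transporter, at -1.98 ± 1.83 (0.927) and Epb4.9 at -1.95 ± 0.68 (0.591), and Hk1 was at 0.71 ± 0.47 (0.927). Hk1 was at 0.55 ± 0.54 against WT/WT (0.943). Mpp1, the palmitoylated partner of glycophorin C and protein 4.1, was at -2.08 ± 0.83 against WT/WT (0.436), and Add2 had the largest positive value in both comparisons, at 0.66 ± 0.66 and 0.74 ± 0.57, with adjusted p-values of 0.949 and 0.927.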
